A study of Mus musculus with 42 samples.

Results

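Lungs of mice given 5 exposures of 0.2 Gy of 56Fe particles were compared with lungs of unirradiated mice. The fractionated group was taken from the treatment label of each sample, as was the unirradiated control group. The comparison used 26 of the 42 arrays of the series, 13 fractionated and 13 control, each group holding 7 males and 6 females. A further array labelled fractionated, replicate 13, was left out because its column is empty in the deposited value table. The remaining 15 arrays came from mice given 1.0 Gy in 1 acute exposure, and their values are set beside those of the fractionated lungs. They were also normalized and fitted together with the 26 compared arrays. Standard errors, p-values and intervals of the main fit therefore draw on 41 arrays.

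All mice, the controls included, were of the strain 129S2 K-rasLA1. In this strain an oncogenic allele is latent and becomes active after spontaneous recombination in scattered cells, so the animals are prone to lung tumours without any exposure. Both irradiated groups received a total of 1.0 Gy of particles of 1.0 GeV per nucleon, and lungs were taken 70 days after irradiation. The whole left lung of each mouse gave 1 RNA sample and 1 Illumina BeadChip array, so each array is a mouse. The age of the animals and the interval between exposures are not given in the sources used here.

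56Fe nuclei are a component of galactic cosmic radiation. They deposit their energy densely along a track and leave clustered DNA breaks that cells repair slowly. Damaged cells activate the transcription factor p53, which raises genes that stop the cell cycle (Cdkn1a), restrain p53 itself (Mdm2) or promote apoptosis. At later times irradiated lung is known for inflammation, senescent cells that secrete cytokines and proteases, loss of alveolar and endothelial cells, and fibrosis. In an extract of a whole lobe, fewer cells of a type and less RNA per cell cannot be told apart.

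The arrays of both groups were similar in quality. Between 16416 and 17489 probes were detected per fractionated array (median 16883) and between 16314 and 17683 per control array (median 16985). Genes that define cell types of the lung were detected. Over the 26 arrays the normalized log2 signal of Sftpc, surfactant protein C of alveolar type 2 cells, lay between 14.52 and 15.07, that of Scgb1a1 of club cells between 14.51 and 15.20, and that of Ager of alveolar type 1 cells between 13.86 and 14.50. Foxj1 of ciliated cells was dim, at 5.59 to 7.25 and detected on 24 of the 26 arrays, and Marco of alveolar macrophages lay between 7.20 and 10.23 and was detected on all 26. The markers of immature T cells Rag1, Rag2 and Dntt were not detected on any of the 26 arrays. On 3 fractionated arrays (replicates 4, 7 and 14) the correlation with the median profile was under 0.97, the lowest being 0.959 for replicate 4, whereas the lowest control array stood at 0.975. The measures of spread, and the medians of some lists, are given with and without these 3 arrays. Medians given only with them can move as well. Replicate 14 was the only array on its slide, so its lung and its slide cannot be told apart. Counts by slide below are over the 7 slides that held both groups.

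No gene was called different between fractionated and unirradiated lungs. Of 16860 probes tested, which stand for 9848 named genes and 2154 probes without a single gene name, 0 passed an adjusted p of 0.05 in limma (0.0%), and the smallest adjusted p was 0.419, shared by 4 probes. At an unadjusted p under 0.05 there were 1007 probes (5.97%), where 843 would be expected by chance, 557 of them higher (3.3%) and 450 lower (2.67%) in fractionated lungs. With only the 26 compared arrays in the fit, 904 probes passed that threshold and 0 were called. Counted over genes, each represented by its brightest probe, 550 of 9848 passed that unadjusted threshold (5.58%), 366 of them higher (3.72%) and 184 lower (1.87%). The median difference over genes was 0.0065 on the log2 scale and 52.8% of genes had a difference above 0. Since only 1 array was made per mouse, these p-values measure the spread between mice together with that of the arrays.

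The 95% confidence intervals describe how precisely each difference was measured. Each is for a single probe and is not adjusted for the number of probes, so some are expected to miss the true difference. The counts below are therefore no firm limit on what went uncalled. The interval lay wholly within 1.5-fold in either direction for 15923 probes (94.4%) and within 2-fold for 16667 (98.9%). It lay within 1.25-fold for 63.9% of probes, and reached past that size for the other 6090. The median standard error (SE) of a difference was 0.098 and the median size of a difference was 0.068 (log2). Only 35 probes had a measured difference beyond 1.5-fold, and 14 of those had an unadjusted p under 0.05.

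**Figure D1:**
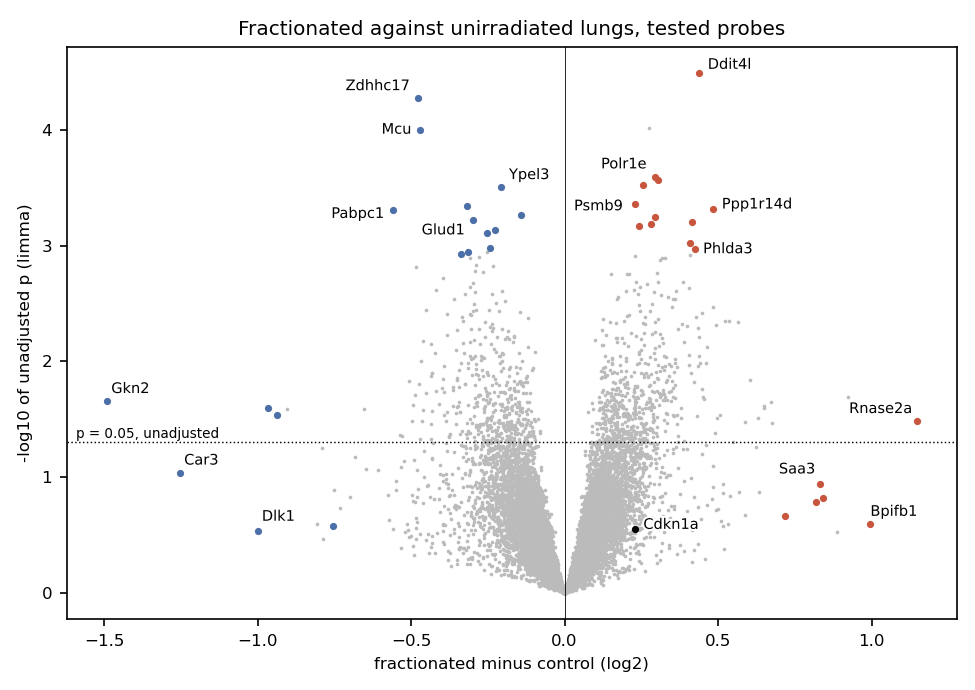
Each point is a tested probe. The x axis gives the difference of mean log2 signal, fractionated minus control, and the y axis the negative log10 of the unadjusted p; the dotted line marks p = 0.05. Red and blue points are the genes of smallest p and of largest difference, and Cdkn1a is in black; genes of smallest p differ by less than 0.6 (log2), and genes of largest difference, such as Rnase2a and Gkn2, have larger p-values.

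Among genes higher in fractionated lungs the smallest p belonged to Ddit4l, which encodes a stress-induced inhibitor of mTOR signalling. Its log2 signal ranged from 6.56 to 7.83 in control lungs (median 7.42) and from 7.45 to 8.30 in fractionated lungs (median 7.87). The ranges overlap, but all 13 fractionated lungs lay above the control median and 7 lay above the highest control. The difference was 0.44 ± 0.09 (SE, n = 13 and 13), a 1.36-fold higher signal, with a limma p of 3.23e-05 and an adjusted p of 0.419. It was in the same direction in 11 of 11 pairs of mice that shared a slide and a sex. In acutely irradiated lungs Ddit4l ranged from 7.36 to 8.15 (median 7.79), at 0.33 ± 0.09 above the same controls.

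Phlda3, a p53 target that inhibits the kinase Akt, was measured by a pair of probes that gave the same direction. On the probe of smaller p its log2 signal ran from 6.96 to 8.06 in control lungs (median 7.54) and from 7.16 to 8.56 in fractionated lungs (median 7.84), so that 5 fractionated lungs exceeded every control. The difference was 0.42 ± 0.12, with an adjusted p of 0.678. The brighter probe gave 0.30 ± 0.10, with 7 of 13 fractionated lungs above the highest control and an adjusted p of 0.747.

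Psmb9, an interferon-inducible catalytic subunit of the immunoproteasome, had a log2 signal of 9.89 to 10.39 in control lungs (median 10.13) and of 10.04 to 10.70 in fractionated lungs (median 10.31). It was higher by 0.23 ± 0.06 (adjusted p = 0.63) and higher on 7 of 7 slides, although only 5 fractionated lungs lay above the control range. Polr1e, a subunit of RNA polymerase I, which transcribes ribosomal RNA, ranged from 6.94 to 7.77 in controls (median 7.31) and from 7.28 to 7.94 in fractionated lungs (median 7.65). The groups overlapped, with 4 fractionated lungs above the control range, and the difference was 0.29 ± 0.07 (adjusted p = 0.63).

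The other genes of the 12 highest-ranked by p differed by 0.24 to 0.49 and had adjusted p-values of 0.63 to 0.678. Ppp1r14d, which encodes an inhibitor of protein phosphatase 1, lay 0.49 ± 0.13 higher, with 8 fractionated lungs above the control range, and was detected in 12 fractionated and 10 control lungs. Cibar2, which encodes a protein of the ciliary base, lay 0.41 ± 0.11 higher and was higher in 11 of 11 matched pairs. Jph2, a structural protein of muscle cell membranes, lay 0.41 ± 0.12 higher, but it was detected in only 9 fractionated and 4 control lungs and its other probe lay at -0.08. Arfrp1, a small GTPase of the Golgi, lay 0.30 ± 0.08 higher, its other probes at 0.01 and 0.06.

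For Ncbp2 and Psmd1 only 1 probe carried the difference. Ncbp2, the small subunit of the nuclear cap-binding complex, lay at 0.30 ± 0.08 on one probe and at -0.01 on the other. Psmd1, a non-ATPase subunit of the proteasome cap, lay at 0.24 ± 0.07 on one and between -0.02 and 0.01 on its other probes. Pole4, a subunit of DNA polymerase epsilon, and Fam185a had differences of 0.28 ± 0.08 and 0.26 ± 0.06, the second probe of Fam185a lying at 0.13.

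Among genes lower in fractionated lungs, Zdhhc17 had the smallest p. It encodes a palmitoyltransferase, an enzyme that attaches palmitate to proteins. Its log2 signal ran from 6.38 to 7.34 in control lungs (median 6.96) and from 5.64 to 7.07 in fractionated lungs (median 6.48), and 5 fractionated lungs lay below every control. The difference was -0.48 ± 0.11, or 0.719 times the control signal, with an adjusted p of 0.419, and it was lower in 10 of 11 matched pairs. Over 40 alternative settings the adjusted p ranged from 0.0276 to 1.0. It passed 0.05 in 1 of them, without control replicate 10, where the difference was -0.55 and the adjusted p 0.0276.

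Mcu, the pore of the mitochondrial calcium uniporter, separated the groups further by count of mice. Its log2 signal was 6.39 to 7.22 in control lungs (median 6.72) and 5.56 to 6.70 in fractionated lungs (median 6.29). All 13 fractionated lungs lay below the control median and 9 lay below the lowest control. The difference was -0.47 ± 0.11 (adjusted p = 0.419), while a second probe of the gene lay at -0.14.

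Pabpc1, the cytoplasmic poly(A)-binding protein, ranged from 7.09 to 8.52 in control lungs (median 7.97) and from 6.14 to 7.73 in fractionated lungs (median 7.39). It was lower in 11 of 11 matched pairs, and the difference was -0.56 ± 0.15 (adjusted p = 0.63). Its other probes lay at -0.29 and -0.09. Ypel3, a p53-regulated growth suppressor, had a log2 signal of 13.25 to 13.69 in control lungs (median 13.48) and of 13.02 to 13.51 in fractionated lungs (median 13.24). The difference was -0.21 ± 0.05 (adjusted p = 0.63), with 8 fractionated lungs below the control range, and the second probe lay at -0.31.

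Glud1, the mitochondrial glutamate dehydrogenase, depended on the probe. The probe of smallest p lay at -0.30 ± 0.08, with 7 fractionated lungs below the control range, and another at -0.33. The brightest probe lay at -0.08 ± 0.05 (adjusted p = 0.892). Hbp1, a transcriptional repressor of cell cycle genes, lay at -0.14 ± 0.04, with 8 fractionated lungs below every control and all 3 other probes also below 0 (-0.25 to -0.07).

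The remaining genes of the 12 lowest-ranked by p lay between -0.34 and -0.23. Herpud2, related to a protein of endoplasmic reticulum degradation, lay at -0.32 ± 0.08. Egln1, the prolyl hydroxylase that senses oxygen and marks HIF for degradation, lay at -0.25 ± 0.07, and Irf1, a transcription factor of the interferon response, at -0.31 ± 0.09. Ufd1, which helps extract ubiquitinated proteins, lay at -0.23 ± 0.06, and the ubiquitin ligase Rnf4 at -0.24 ± 0.07. For Ptprk, a receptor tyrosine phosphatase, the probe at -0.34 ± 0.10 was accompanied by others at -0.05 and 0.12.

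**Figure D2:**
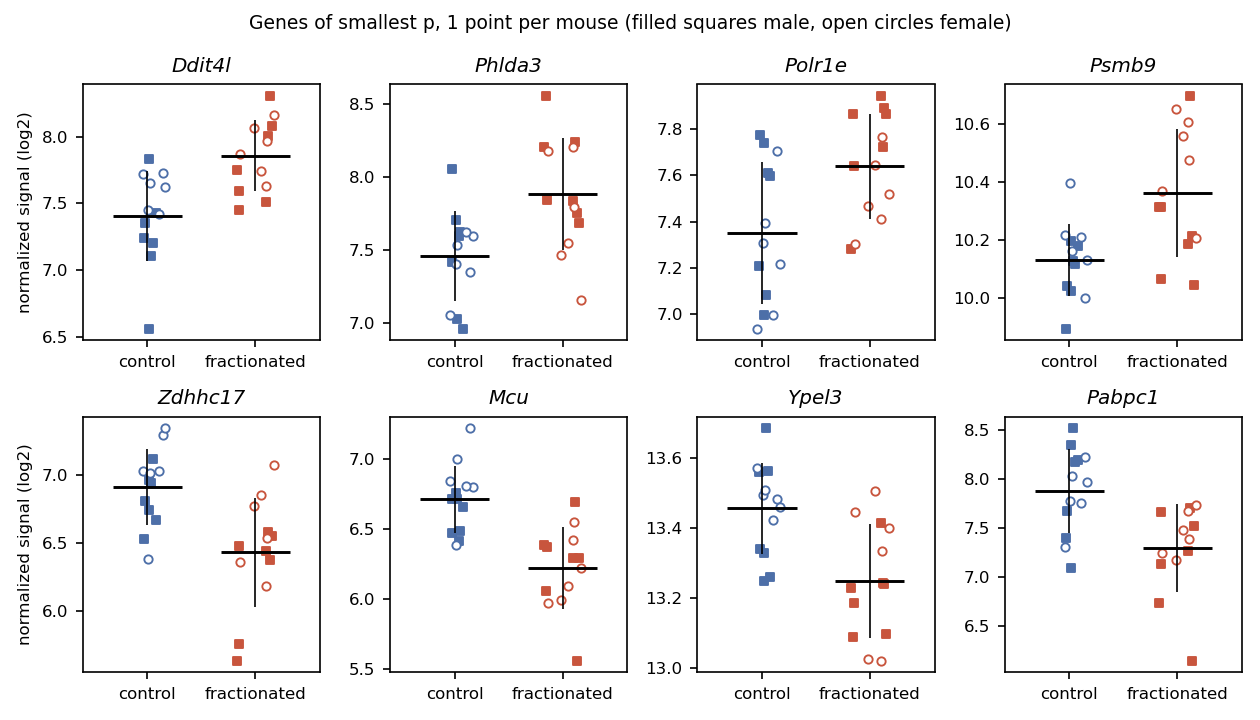
Normalized log2 signal of 8 genes of smallest p, with 1 point per mouse, 13 control (blue) and 13 fractionated (red). Filled squares are males and open circles females; the horizontal bar is the mean and the vertical line 1 SD to either side. The groups overlap for every gene shown; for Mcu 9 fractionated lungs lie below the lowest control and for Ddit4l 7 lie above the highest.

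The genes with the largest measured differences varied widely within both groups. Rnase2a, an eosinophil-associated ribonuclease of a family with close copies that a probe may not tell apart, ranged from 5.46 to 9.91 in control lungs (median 6.40) and from 5.08 to 11.20 in fractionated lungs (median 7.19). The difference of 1.15 ± 0.52 had an adjusted p of 0.81, and 3 fractionated lungs lay above the control range. Gkn2, a secreted protein of the gastrokine family, ranged from 4.51 to 10.98 in controls (median 8.63) and from 4.52 to 9.03 in fractionated lungs (median 6.94). It lay at -1.49 ± 0.63 (adjusted p = 0.801), and no fractionated lung lay outside the control range. It was detected in 9 fractionated and 12 control lungs.

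The other large positive differences belonged to 5 genes. The airway protein Bpifb1 lay at 1.00 ± 0.86, the acute-phase protein Saa3 at 0.83 ± 0.52, lactoferrin (Ltf) at 0.82 ± 0.57 and the trefoil factor Tff2 at 0.72 ± 0.57. Fxyd4, a regulator of the sodium pump, lay at 0.84 ± 0.57. None had an unadjusted p under 0.05.

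The other large negative differences belonged to 5 genes as well. Carbonic anhydrase 3 (Car3) lay at -1.25 ± 0.73, the fat hormone adiponectin (Adipoq) at -0.75 ± 0.67 and the cytochrome P450 Cyp2e1 at -0.96 ± 0.41. The iron hormone hepcidin (Hamp) lay at -0.94 ± 0.41. Dlk1, a regulator of adipocyte differentiation, lay at -1.0 ± 0.94, and its fractionated values ran from 4.59 to 13.61, beyond the control range of 4.51 to 12.94. Adipoq lay at -1.84 in females and at 0.20 in males. Adipose markers as a list are given below.

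The spread between mice was larger in the fractionated group, and by less without the 3 arrays of low profile correlation. The median SD over probes was 0.313 (log2) in fractionated and 0.272 in control lungs, and 67.0% of probes had the larger SD in fractionated lungs. In 678 probes the fractionated SD was at least 2 times that of controls, and in 103 the control SD was at least 2 times that of fractionated lungs. Without replicates 4, 7 and 14 the fractionated median SD was 0.285, 55.7% of probes had the larger SD in fractionated lungs, and the counts at 2 times were 339 and 279. This is a description of the mice in each group and was not tested.

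Genes of macrophages and of cytokines were among those with such a larger spread. The level of a gene list in a mouse is given here as the mean deviation of its tested genes from their average over the 26 mice, in log2 units. For 22 genes of macrophages and monocytes it ran from -0.52 to 0.28 in controls and reached 0.49, 0.78, 0.92 and 1.10 in fractionated replicates 10, 3, 7 and 4. No control reached the level of these 4 lungs, which came from both sexes and 3 slides. The same 4 lungs exceeded every control for 23 cytokine and chemokine genes, at 0.36 to 1.02 against a highest control of 0.15. For that list fractionated replicates 6 and 14 lay below every control, at -0.46 and -0.38 against a lowest control of -0.27. The ratio of the SDs, fractionated over control, was 2.59 for the macrophage list and 3.68 for the cytokine list, and 1.89 and 2.54 without replicates 4, 7 and 14. Other lists had high ratios too, 3.13 for circadian clock genes and 2.24 for MHC class II and dendritic cell genes. For the clock genes 4 fractionated lungs lay below every control and 2 above. Of the 15 acutely irradiated lungs, 3 lay above all controls for the macrophage list and 4 for the cytokine list, with highest levels of 0.99 and 0.92. Below all controls lay 1 acute lung for the macrophage list and 3 for the cytokine list.

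Of 7 single genes followed in these lungs, Ctsk alone stood above every control in all 4. The 4 lungs were picked for high levels of the macrophage list, so high values of such genes in them are no separate support. Ctsk, a lysosomal collagenase, had a log2 signal of 9.46 to 10.70 in control lungs and of 12.12, 12.89, 12.54 and 12.11 in fractionated replicates 3, 4, 7 and 10. Its fractionated median, 9.81, lay below the control median of 10.04, and the group difference was 0.52 ± 0.34 (adjusted p = 0.892). Trem2, a lipid receptor of macrophages, stood at 9.35, 10.20, 9.69 and 9.01 in these replicates, against a highest control of 9.06. Saa3 stood at 11.40, 12.51, 11.98 and 10.22, against a highest control of 10.67. Replicate 10 thus lay within the control range for both genes, as it did for Rnase2a, at 7.86.

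A pair of chemokines and a protease inhibitor were above every control in replicates 3, 4 and 7 but not in replicate 10. Ccl17, which attracts T cells, stood at 9.39, 10.52 and 8.14 in replicates 3, 7 and 10 and lay 1.52 above the highest control (8.48) in replicate 4. Ccl11, which attracts eosinophils, stood at 9.93, 10.15, 11.22 and 8.04 in replicates 3, 4, 7 and 10 (highest control 9.18). Timp1, an inhibitor of metalloproteinases, stood at 10.33, 11.36, 11.88 and 9.59 in the same order (highest control 10.15). Over the group, Timp1 lay at 0.63 ± 0.28 (adjusted p = 0.809), Ccl17 at 0.57 ± 0.37 and Ccl11 at 0.52 ± 0.32.

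In replicates 3, 4 and 7 markers of the alveolar wall were low. For 27 endothelial genes these lungs stood at -0.29, -0.91 and -0.55, below the lowest control at -0.25, and for 18 genes of alveolar type 1 cells at -0.28, -0.39 and -0.54, below the lowest control at -0.23. For alveolar type 1 cells 4 other fractionated lungs (replicates 8, 6, 14 and 12) lay above every control. Of the 15 acutely irradiated lungs 3 lay below every control for each list. Above every control lay 1 acute lung for endothelium and 4 for alveolar type 1 cells. Replicates 4 and 7 are also among the 3 arrays of lowest profile correlation. The share of these values that reflects the array rather than the lung was not tested.

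The list medians moved accordingly. Of the 22 macrophage genes 16 were higher and 6 lower in fractionated lungs, none with an unadjusted p under 0.05, and the median difference was 0.19. It was 0.02 without replicates 4, 7 and 14 and 0.09 without replicate 4 alone. The level of the macrophage list had a median over mice of -0.22 in fractionated and -0.06 in control lungs. That level was higher in fractionated lungs on 3 of 7 slides and in 6 of 11 matched pairs. Of the 27 endothelial genes 22 were lower, with a median of -0.08 that became 0.04 without those arrays, 0.01 without replicate 4 alone and -0.21 (25 of 27 lower) with replicate 13 kept. For alveolar type 1 cells 13 of 18 genes were lower (median -0.05), and the median turned to 0.01 both without those arrays and under median scaling; with replicate 13 kept it was -0.15, with 0 of 18 genes higher. The median of the cytokine list was 0.12 (16 of 23 higher) and 0.04 both without the 3 arrays and without replicate 10 alone. The level of the cytokine list had a median over mice of -0.165 in fractionated and -0.06 in control lungs. It was higher in fractionated lungs on 3 of 7 slides and in 6 of 11 matched pairs.

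**Figure D3:**
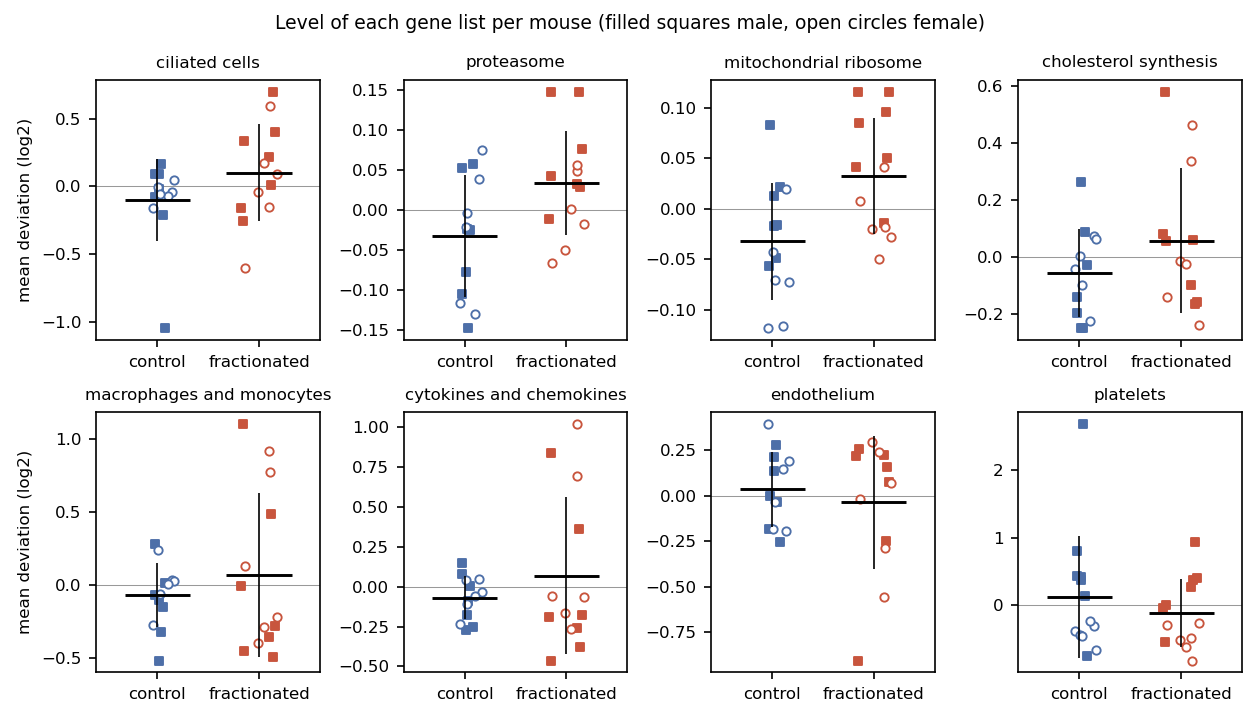
Level of 8 gene lists in each mouse, as the mean deviation of the tested genes from their average over the 26 mice (log2); blue is control and red fractionated, filled squares are males and open circles females, with mean and SD. For macrophages and for cytokines 4 fractionated lungs lie above all 13 controls, and for cytokines 2 lie below all controls. For platelets 1 control at 2.68 lies far above the rest.

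Gene lists were described by counts, since no member of any list was called. The 46 lists held 1271 genes in all. Named probes were found for 1149 of them, and 913 passed the filter on dim probes. The counts below are to be read against all genes, of which 52.8% were higher, 3.72% were higher with an unadjusted p under 0.05 and 1.87% were lower at that threshold. Genes of a list vary together across mice, so their counts are not independent observations.

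Genes of the direct radiation response showed no common direction. Of 20 p53 targets tested 11 were higher and 9 lower, with a median of 0.02. Without the 3 arrays of low profile correlation 14 of 20 were higher, with a median of 0.05. Cdkn1a, the p53-induced inhibitor of cyclin-dependent kinases, ranged from 9.18 to 11.96 in control lungs (median 10.91) and from 9.92 to 11.95 in fractionated lungs (median 11.06). Its difference was 0.23 ± 0.21, with a 95% interval of -0.19 to 0.65 and an adjusted p of 0.928. Mdm2, the ubiquitin ligase of p53, lay at -0.03 ± 0.07, with an interval of -0.17 to 0.11, and at 0.01 under median scaling. Ccng1, encoding cyclin G1, lay at 0.14 ± 0.06 (adjusted p = 0.801), with 1 fractionated lung above the control range.

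Genes of DNA repair and of the cell cycle had medians close to 0, which moved with 1 array. For 23 DNA repair genes the median was 0.00, with 12 higher and 11 lower, and 0.11 with fractionated replicate 13 kept (18 of 23 higher). Brca2, of homologous recombination, lay at 0.30 ± 0.12 but was detected in 10 fractionated and 6 control lungs, and Xpc, the damage sensor of nucleotide excision repair, lay at -0.16 ± 0.06. The cell cycle list had a median of 0.04, with 18 of 24 genes higher and none at an unadjusted p under 0.05. The helicase subunits Mcm6 and Mcm5 lay at 0.26 ± 0.17 and 0.18 ± 0.12, and Rrm2, a subunit of ribonucleotide reductase, at -0.20 ± 0.16. With replicate 13 kept, the array that carried markers of immature T cells, the median of the cell cycle list was 0.28 and 23 of 24 genes were higher. It was 0.01 without fractionated replicate 7, 0.12 without control replicate 4 and -0.01 without the 3 arrays of low profile correlation.

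Genes linked to senescence and fibrosis gave small medians. The senescence and secretory list had 12 of 17 genes higher and a median of 0.07. Cdkn2b, an inhibitor of cyclin-dependent kinases that marks senescent cells, lay at 0.21 ± 0.11, with 4 fractionated lungs above the control range, and the related Cdkn1b at -0.18 ± 0.12. Of 27 extracellular matrix genes 17 were lower, with a median of -0.05. Without the 3 arrays of low profile correlation the senescence and matrix medians were 0.04 and -0.02. Col1a1, the main chain of type I collagen, ranged from 9.57 to 11.09 in controls and from 9.10 to 11.49 in fractionated lungs, beyond the control range on both sides, with a difference of -0.19 ± 0.17 (adjusted p = 0.926). Col6a1 lay at -0.17 ± 0.09 and Timp2, an inhibitor of metalloproteinases, at -0.16 ± 0.09. Tgfb1, a growth factor that drives fibrosis, lay at -0.05 ± 0.16.

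The interferon response list had 19 of 24 genes higher and a median of 0.05. The median was 0.02 without fractionated replicate 11, whose level of 0.59 compared with a highest control of 0.19, and it was 0.01 in males (14 of 24 higher) and 0.08 in females. Oasl2 and Dhx58, which are interferon-induced proteins of RNA virus defence, lay at 0.27 ± 0.14 and 0.16 ± 0.09. The highest Oasl2 value, 10.72 in fractionated replicate 11, compares with a highest control of 9.35. The median of the same list in acutely irradiated lungs was 0.09.

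The proteasome list leaned higher over many small differences. Of 31 subunits tested 24 were higher (77.4%), and 8 were higher with an unadjusted p under 0.05 (25.8%), none lower. The median difference was 0.06, which on a linear scale is a difference of a few percent. Besides Psmb9, Psma5 of the core particle ranged from 12.18 to 12.59 in controls (median 12.46) and from 12.40 to 12.69 in fractionated lungs (median 12.54), at 0.13 ± 0.04 (adjusted p = 0.747). Psmc5, an ATPase of the cap, lay at 0.14 ± 0.05. The level of the list was higher in fractionated lungs on 7 of 7 slides and in 8 of 11 matched pairs. The median lay between 0.05 and 0.08 with any 1 mouse left out, at 0.12 under median scaling, and at 0.02 in acutely irradiated lungs against the same controls. In males the median was 0.10 (27 of 31 higher) and in females 0.03 (19 of 31 higher).

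The mitochondrial ribosome and the respiratory chain leaned in the same direction. Of 53 genes of the mitochondrial ribosome, which translates the proteins encoded by mitochondrial DNA, 46 were higher (86.8%), 8 with an unadjusted p under 0.05 (15.1%), and the median was 0.07. Mrps33 lay at 0.17 ± 0.05 (adjusted p = 0.721) with 8 fractionated lungs above the control range, Mrpl40 at 0.13 ± 0.05 and Mrps18b at 0.20 ± 0.07. The median lay between 0.06 and 0.08 with any 1 mouse left out, and was 0.07 in males (43 of 53 higher) and 0.05 in females (35 of 53 higher). For 65 genes of oxidative phosphorylation 53 were higher (81.5%), 4 at that threshold (6.15%), with a median of 0.05 that was 0.02 without the 3 arrays of low profile correlation. Under median scaling the median was 0.11 for oxidative phosphorylation, with 63 of 65 genes higher, and 0.10 for the mitochondrial ribosome. By sex the oxidative phosphorylation median was 0.07 in males (51 of 65 higher) and 0.03 in females (42 of 65 higher). The complex I subunits Ndufb2, Ndufa8 and Ndufb4 lay at 0.32 ± 0.11, 0.11 ± 0.05 and 0.28 ± 0.12. The acute medians of these lists were 0.04 and 0.00.

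Ribosomal proteins of the cytosol did not follow. Of 43 genes 30 were lower with a median of -0.02, which became 0.04 under median scaling, so their direction depends on the scaling. Rpl37 lay at -0.10 ± 0.03, Rpl10a at -0.09 ± 0.04 and Rps16 at -0.09 ± 0.05. Under median scaling Rpl10a lay at 0.00, and the median over all genes at 0.02.

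Genes of cholesterol synthesis were higher in 16 of 18 cases (88.9%), 2 with an unadjusted p under 0.05 (11.1%), with a median of 0.13. Sqle, which makes squalene epoxide, ranged from 10.02 to 10.82 in controls (median 10.40) and from 10.06 to 11.41 in fractionated lungs (median 10.54), a difference of 0.25 ± 0.10 (adjusted p = 0.801). Srebf2, the transcription factor that raises the pathway, lay at 0.20 ± 0.09 and Msmo1 at 0.20 ± 0.10. The 3 lungs above the control range for this list were replicates 3, 4 and 7, those that were high for macrophage genes, and the median was 0.07 without the arrays of low profile correlation. In acutely irradiated lungs it was 0.02.

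Antioxidant genes had a median of 0.00 (13 of 28 higher). At an unadjusted p under 0.05 in limma 4 were higher (14.3%, beside 3.72% of all genes) and 1 lower (3.57%, beside 1.87%). The median was 0.03 without the 3 arrays of low profile correlation, with 20 of 28 genes higher. Peroxiredoxin 1 (Prdx1) ranged from 13.69 to 13.98 in controls (median 13.81) and from 13.79 to 14.04 in fractionated lungs (median 13.89), a difference of 0.10 ± 0.03 (adjusted p = 0.762). Sulfiredoxin (Srxn1), which repairs peroxiredoxins, lay at 0.17 ± 0.07, and catalase (Cat) at -0.15 ± 0.06.

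**Figure D4:**
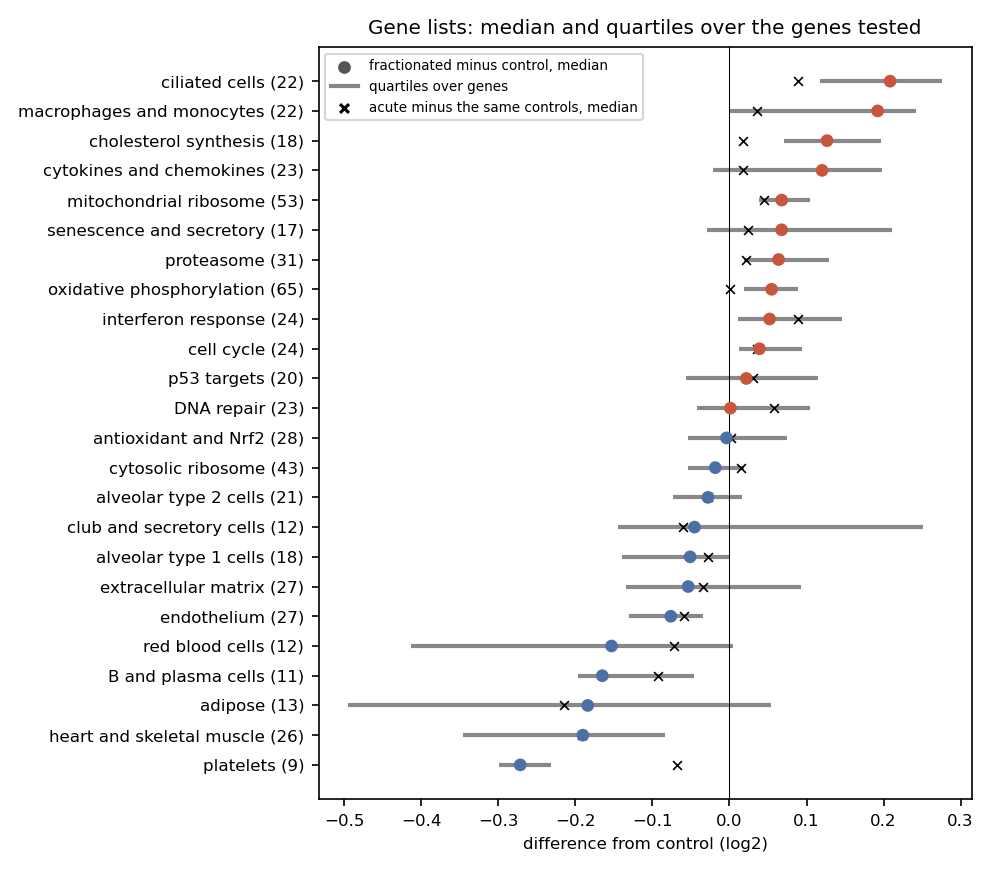
Median difference from control of 24 gene lists over the genes tested, whose number stands in parentheses. Filled circles are fractionated minus control (red above 0, blue below), grey lines the quartiles over genes, and crosses the median for acutely irradiated lungs against the same controls; ciliated cells stand highest at 0.21 and platelets lowest at -0.27.

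Of the airway and alveolar lists, that of ciliated cells had the highest share of higher members. Of 22 genes 20 were higher (90.9%) and 6 were higher with an unadjusted p under 0.05 (27.3%), with a median of 0.21. Capsl, a calcium-binding protein expressed in ciliated cells, ranged from 7.59 to 8.73 in controls (median 8.34) and from 7.80 to 9.49 in fractionated lungs (median 8.76). It lay above the control range in 8 fractionated lungs and was higher in 11 of 11 matched pairs, by 0.41 ± 0.12 (adjusted p = 0.678). Dnajb13 and Rsph9, components of the radial spokes of the axoneme, lay at 0.36 ± 0.11 and 0.24 ± 0.08. The level of the list was above the highest control (0.17) in 6 fractionated lungs, and higher in 9 of 11 pairs and on 5 of 7 slides. Control replicate 4 stood far below the rest at -1.05, and without it the median was 0.10. The median was 0.22 without the 3 arrays of low profile correlation, 0.08 with fractionated replicate 13 kept, 0.32 in males and 0.08 in females. In acutely irradiated lungs it was 0.09.

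The medians of the other epithelial lists were small. The median was -0.03 over 21 genes of alveolar type 2 cells and -0.05 over 12 genes of club and secretory cells, and both were above 0 under median scaling (0.04 and 0.01). Without the 3 arrays of low profile correlation they were -0.06 and 0.05, with 8 of the 12 club and secretory genes higher. For club and secretory cells the counts over genes and over mice ran in opposite directions. While 8 of its 12 genes were lower, the level of the list, in which Bpifb1, Tff2 and Scgb3a1 have the largest differences (1.00, 0.72 and 0.52), averaged 0.06 in fractionated and -0.06 in control lungs. That level was higher in 9 of 11 matched pairs and on 5 of 7 slides, and 4 fractionated lungs lay above all controls. Sftpb, surfactant protein B, ranged from 13.80 to 15.32 in controls (median 14.87) and from 13.34 to 15.14 in fractionated lungs (median 14.65), a difference of -0.34 ± 0.15 (adjusted p = 0.804). Sftpc lay at -0.07 ± 0.06, Scgb1a1 at -0.01 ± 0.06 and Ager at 0.00 ± 0.06. The interval of Sftpc, the widest toward lower values of the 3, reached -0.19. Lamp3, of lamellar bodies, lay at -0.29 ± 0.19 and the chitinase Chia1 at 0.34 ± 0.26. Of club cell genes, the carbonyl reductase Cbr2 lay at -0.15 ± 0.09 and the aldehyde dehydrogenase Aldh1a7 at 0.16 ± 0.11. In alveolar type 1 cells Gprc5a lay at -0.18 ± 0.08 and Cav2, a caveolin, at -0.27 ± 0.16.

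Vessel genes were followed singly as well. Pecam1, the adhesion molecule CD31 of endothelium, ranged from 12.10 to 12.79 in controls (median 12.52) and from 11.49 to 12.92 in fractionated lungs (median 12.52), with a difference of -0.11 ± 0.12 (adjusted p = 0.938). Flt4, a receptor of lymphatic endothelium, lay at -0.31 ± 0.17, Eng, a TGF-beta co-receptor, at -0.26 ± 0.18 and the capillary protein Gpihbp1 at -0.19 ± 0.14.

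Most markers of B cells lay lower in fractionated lungs. Of 11 B and plasma cell genes 10 were lower (90.9%), 2 with an unadjusted p under 0.05 (18.2%), and the median was -0.17. The kinase Blk ranged from 5.18 to 7.84 in controls (median 6.49) and from 5.31 to 6.71 in fractionated lungs (median 6.09), a difference of -0.47 ± 0.19 (adjusted p = 0.801). The B cell receptor subunit Cd79b lay at -0.32 ± 0.15. The median of the list was -0.07 without control replicate 2, and in acutely irradiated lungs it was -0.09. The level of the list was lower in fractionated lungs on 4 of 7 slides and in 8 of 11 matched pairs.

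Red cell and platelet genes depended on few control mice. For red cells 8 of 12 genes were lower, with a median of -0.15, and the level was lower on 7 of 7 slides. Control replicates 2 and 6 stood at 1.28 and 1.11, the next control at 0.34, and the median was -0.09 without control replicate 6 and -0.10 without control replicate 2. Alas2, the first enzyme of haem synthesis in red cells, ranged from 10.83 to 14.41 in controls (median 12.09) and from 10.45 to 12.37 in fractionated lungs (median 11.58), at -0.65 ± 0.28 (adjusted p = 0.801). Slc25a37, which carries iron into mitochondria, lay at -0.46 ± 0.24. All 9 platelet genes tested were lower, with a median of -0.27, but the median was -0.04 without control replicate 6, whose level of 2.68 compared with 0.80 for the next control. F13a1, a clotting factor subunit, lay at -0.36 ± 0.19, and the platelet chemokine Ppbp, at -0.49 ± 0.34, reached 12.10 in a control lung.

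Markers of muscle and of adipose tissue were also variable. Of 26 heart and skeletal muscle genes 23 were lower with a median of -0.19, while the level ran from -1.39 to 1.55 among controls, and the median was -0.04 without fractionated replicate 4 and -0.42 with replicate 13 kept. The muscle genes Sln and Actn2 lay at -0.56 ± 0.51 and -0.44 ± 0.43. Of 13 adipose genes 8 were lower with a median of -0.18, which was -0.08 without the 3 arrays of low profile correlation. Dgat2, an enzyme of triglyceride synthesis, lay at -0.49 ± 0.21 (adjusted p = 0.801). The part of muscle and adipose tissue in the single-gene differences above was not tested.

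Males and females were compared within the fractionated contrast. In a test of the interaction of sex with fractionated irradiation 0 of 16860 probes passed an adjusted p of 0.05 in limma (0.0%), and 454 had an unadjusted p under 0.05 (2.69%). The sign of the difference was the same in both sexes for 55.4% of probes, and over probes, which are not independent, the male and female differences had a Pearson r of 0.17. Fitted by sex, 750 probes in males and 619 in females had an unadjusted p under 0.05, 33 in both, of which 26 ran in the same direction. The genes of smallest interaction p were Hspa2, a heat shock protein of the HSP70 family, at 0.57 ± 0.15 in males and -0.19 ± 0.10 in females, and the zinc transporter Slc39a1, at -0.18 ± 0.18 and 0.80 ± 0.17. Haus5, of the mitotic spindle, lay at 0.40 ± 0.12 in males and -0.32 ± 0.17 in females, and Pced1a at -0.25 ± 0.12 and 0.50 ± 0.17. All 4 had an interaction adjusted p of 1.0. The leading genes of the group comparison had the same direction in each sex, which their choice by p over both sexes makes likely. Zdhhc17 lay at -0.57 in males and -0.37 in females, Mcu at -0.35 and -0.63 and Ddit4l at 0.55 and 0.32.

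**Figure D5:**
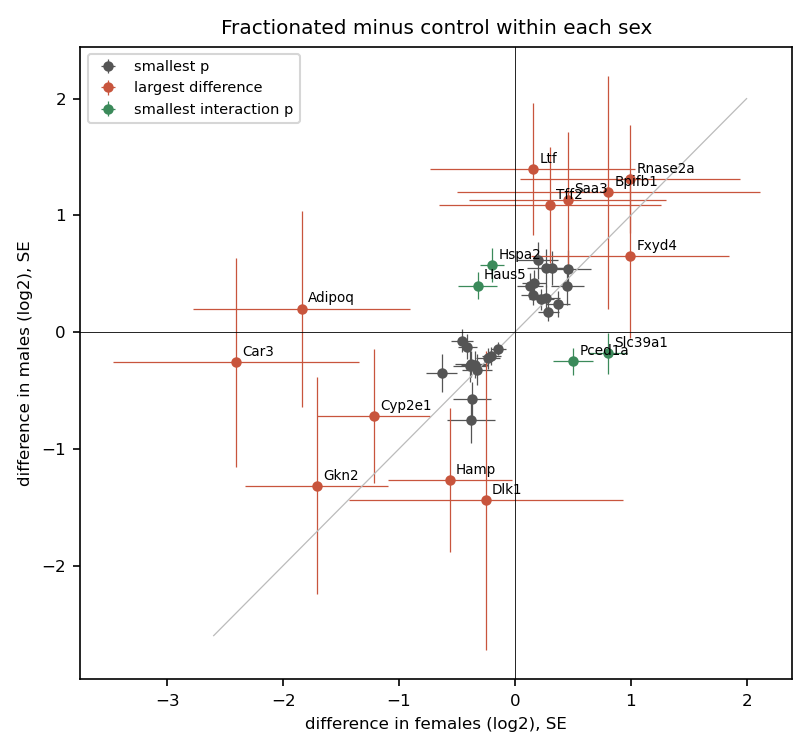
Difference between fractionated and control lungs in females (x axis) and in males (y axis), log2 with SE bars, for the genes of smallest p (grey), of largest difference (red) and of smallest interaction p (green); the diagonal marks equal differences. The grey genes, chosen by p over both sexes, keep their sign in both. The 4 green genes, chosen by interaction p, and Adipoq have opposite signs.

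The same total dose given at once offered a point of reference. The acute group was compared with the same 13 controls, so that both sets of differences share them. Against these controls 0 probes were called in acutely irradiated lungs in limma (0.0%), with 579 at an unadjusted p under 0.05 (3.43%). Between fractionated and acute lungs 0 of 16860 probes passed (0.0%), with 483 at an unadjusted p under 0.05 (2.86%). For Zdhhc17 the acute difference was -0.32 ± 0.10 beside -0.48 ± 0.11 for fractionated lungs, for Mcu -0.20 ± 0.11 beside -0.47 ± 0.11, and for Psmb9 0.18 ± 0.06 beside 0.23 ± 0.06. Ypel3 was the leading gene with the smallest p between the schedules. It ranged from 13.24 to 13.74 in acutely irradiated lungs (median 13.49), at 0.00 ± 0.05 from controls, and the fractionated lungs lay 0.21 ± 0.05 below them (difference -0.21, adjusted p = 1.0).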

How the data were processed

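RNA of the left lung of each mouse was measured on 42 Illumina arrays, on 8 slides. Per the file headers, each array has a column of signal intensity and one of detection p-values in the deposited non-normalized table. A second deposited table gives the authors' normalized values on a log2 scale, with 1 column empty; their software and background step are not given in the sources used here. Signals of 41 arrays were background corrected (from detection p-values), offset by 16, quantile normalized and log2 transformed with neqc of limma 3.58.1 (R 4.3.3). Probes with detection p under 0.01 on at least 13 of the 26 compared arrays were tested with group and sex as terms, slide as a random block (correlation 0.257), moderated variances and Benjamini-Hochberg adjustment. The fit held the 41 arrays, so the acute arrays share in the estimates of spread and of the slide effect. Precision is limited by the number of arrays. The fit was tested on simulated data.

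Of 45281 probes 34885 had 1 gene symbol, 18 several and 10378 none; 34818 matched RefSeq genes (GRCm38.p6), used for names only. Named genes were those called (none), the 12 higher and 12 lower of smallest p, the 6 of largest difference either way, the 4 of smallest interaction p, a fixed set, and up to 3 of smallest p per list described, represented by the brightest probe. The members and lists were chosen with earlier results of these data known. Ranges, other settings and single mice left out are in the closing section; leaving out arrays of profile correlation under 0.97 and a fit of the 11 pairs of mice of 1 slide and sex were added after the data were seen.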

Additional observations from a re-analysis of the deposited data

Results flagged for a closer look

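Fractionated replicate 13, the array that was left out of every comparison, carried signal of immature T cells that the compared lungs lacked. Its signal intensity was 3579.1 for Dntt, 2504.3 for Rag1 and 965.2 for Ptcra, markers of developing thymocytes, against highest control signals of 121.7, 126.2 and 162.3. Dntt and Rag1 were detected on 0 of the 13 controls and Ptcra on 2. Rag2, a further marker, was at 118.3 and not detected on this array. The profile of the array had a correlation of 0.858 with the median profile. These values were noted because they lie in data outside the comparison and above the control level.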

How the results depend on the processing

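Calls stayed at 0 probes under all alternatives except 1, and ranged from 0 to 1 with single mice left out; the 1 call, without control replicate 10, was Zdhhc17 (-0.5463). The count of probes with an unadjusted p under 0.05 was 605 with no slide term and 619 in females only, and ranged from 830 to 1165 with single mice left out; the share of intervals within 1.5-fold ranged from 93.4% to 94.5% with single mice left out, and was 80.8% in females only, 83.5% in males only, 89.6% for the authors' value table, 90.6% with fractionated replicate 13 kept and 98% with no background correction. The cause of these moves was not tested, and the fits of 1 sex also held fewer mice. Of named genes, these changed sign. In males only Adipoq lay at 0.2002, Slc39a1 at -0.1814, Pced1a at -0.2487, Mdm2 at 0.0127, Scgb1a1 at 0.0458 and Ager at -0.046. In females only Hspa2 lay at -0.1946, Haus5 at -0.3217, Tgfb1 at 0.1207 and Nfe2 at 0.1137. With fractionated replicate 13 kept, Scgb1a1 lay at 0.0058, Ager at -0.0592, Rrm2 at 0.0817 and Aldh1a7 at -0.0095. Under median scaling Mdm2 lay at 0.0128, Scgb1a1 at 0.0427 and Rpl10a at 0.0047, and with slide as a fixed block Tgfb1 at 0.0017. With single mice left out Ager ranged from -0.0206 to 0.0344, Scgb1a1 from -0.0395 to 0.0072 and Tgfb1 from -0.1018 to 0.0169. As reported, each of these genes had an adjusted p above 0.8. Among list medians, those of DNA repair, cell cycle, endothelium, alveolar type 1 cells and heart and muscle moved to 0.1136, 0.2838, -0.214, -0.1544 and -0.424 with replicate 13 kept, those of the cytosolic ribosome and oxidative phosphorylation to 0.0418 and 0.1093 under median scaling, and that of 11 neutrophil genes from -0.0851 to 0.2265 in females only. With single mice left out the median ranged from -0.0916 to -0.0178 for extracellular matrix, -0.0894 to 0.009 for club cells, -0.0867 to -0.0089 for alveolar type 1 cells, -0.0757 to 0.0077 for alveolar type 2 cells, -0.1256 to 0.0062 for endothelium, 0.0884 to 0.2414 for macrophages, 0.0406 to 0.1563 for cytokines, 0.0548 to 0.1059 for senescence, -0.2033 to -0.0681 for B cells, -0.3038 to -0.0422 for heart and muscle and -0.2419 to -0.1164 for adipose. With the arrays of profile correlation under 0.97 left out there were 0 calls, and 863 probes passed an unadjusted p of 0.05. The labels number no replicates, so a paired fit could use only the 11 pairs of mice that shared a slide and a sex. With these pairs as a replicate block there were 0 calls, 816 probes had an unadjusted p under 0.05, Zdhhc17, Mcu and Ddit4l lay at -0.49, -0.40 and 0.41 (adjusted p = 0.931), and Ager lay at -0.0183. Genes near background were measured on part of the arrays only, as stated beside them.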
